A study of Homo sapiens with 18 samples.

Results

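The libraries with guides against CDKN1A were compared directly with the libraries with guides against KDM1A, which are 8 of the 18 poly(A) RNA-seq libraries of the series, chosen by their labels. All were made from hiF-T, a line of human fibroblast-like cells that came from BJ skin fibroblasts, carries an inducible telomerase (hTERT) transgene and is labelled wild type. The CDKN1A knockdown group held 4 libraries, from guides 1 and 2 with biological replicates 1 and 2 of each, and the KDM1A knockdown group held 4 libraries, from guides 2 and 3 with biological replicates 1 and 2 of each. How the guides lower the mRNA, and whether replicates were separate transductions or cultures, the sources used here do not say, so p-values measure the spread between these libraries, which may be technical. The other 10 libraries, with control guides or guides against SPP1, entered the filter on low counts, the scaling and the estimate of the spread. They were not part of the comparison itself. Because neither group was unperturbed, a difference does not say in which knockdown a gene moved.

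CDKN1A encodes p21, a protein that binds and inhibits cyclin-dependent kinases and is itself transcribed under the control of the tumour suppressor p53. KDM1A encodes LSD1, a nuclear demethylase that removes methyl groups from histone H3 within the CoREST repressor complex. Both act as brakes in fibroblasts, p21 on the cell cycle and LSD1 on transcription, and both have been studied as barriers to the reprogramming of fibroblasts to pluripotency.

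The libraries held 13306264 to 16202641 estimated counts in CDKN1A knockdown and 13216585 to 17016094 in KDM1A knockdown, with 12738 to 13161 genes with at least 10 counts. Mitochondrial genes took 1.96 to 2.42% of the counts. All 9 fibroblast markers reached a level of 1 TPM (transcripts-per-million) in at least 1 library, and their summed level was 12243 to 13328 TPM in CDKN1A knockdown libraries and 12399 to 13298 TPM in KDM1A knockdown libraries. Keratinocyte markers summed to 144 to 166 TPM in CDKN1A knockdown and 169 to 181 TPM in KDM1A knockdown, with 5 of 10 under 1 TPM in all 8 libraries and KRT1 and KRT6A listed at 0. Melanocyte markers summed to 3.61 to 5.26 TPM in CDKN1A knockdown and 2.71 to 6.33 TPM in KDM1A knockdown. Endothelial and leukocyte markers summed to 25.4 to 32.8 TPM in CDKN1A knockdown and 25.3 to 35.2 TPM in KDM1A knockdown, with 10 of 12 under 1 TPM and CD3E listed at 0. Of the 8 members of these 3 lists that passed the filter on low counts, 0 passed the edgeR test described below, 2 had an unadjusted p under 0.05 and 1 was called by DESeq2. TERT, the gene of the transgene, was measured in counts-per-million (CPM) scaled by edgeR's TMM method, the scale of every level below unless TPM is named. It lay between 1970.1 and 2427 CPM in CDKN1A knockdown and between 1997 and 2399 CPM in KDM1A knockdown (log2 0.02 ± 0.08, adjusted p 0.905).

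The targeted mRNAs were measured first. CDKN1A (ENSG00000124762, chromosome 6, 36676460 to 36687339, GRCh38) measured 290.0 and 275 CPM (guide 1) and 435 and 427 CPM (guide 2) in CDKN1A knockdown, against 496 and 528 CPM (guide 2) and 465 and 458 CPM (guide 3) in KDM1A knockdown. Every CDKN1A knockdown library lay below every KDM1A knockdown library, and the libraries of guide 1 lay furthest below. The mean was 357 ± 86.2 CPM in CDKN1A knockdown and 487 ± 32.3 CPM in KDM1A knockdown (SD, n = 4 each), 73.2% of the KDM1A knockdown level. The log2 fold change, given throughout as CDKN1A knockdown over KDM1A knockdown with its standard error (SE), was -0.45 ± 0.13, with an adjusted p of 0.0212 from edgeR's quasi-likelihood test with the Benjamini-Hochberg correction over 13527 genes. A gene is called higher or lower below when that adjusted p is under 0.05. The call was lost without CDKN1A guide 1 (log2 -0.18, adjusted p 0.305) and without KDM1A guide 2 (log2 -0.38, adjusted p 0.164). It was also lost without either CDKN1A guide 1 library (log2 -0.36 and -0.34, adjusted p 0.0726 and 0.0750) and without KDM1A guide 2 replicate 2 (log2 -0.41, adjusted p 0.0624).

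KDM1A (ENSG00000004487, chromosome 1, 23019443 to 23083689, GRCh38) measured 116 and 119 CPM (guide 1) and 121 and 127 CPM (guide 2) in CDKN1A knockdown, against 73.2 and 75.0 CPM (guide 2) and 50.7 and 52.0 CPM (guide 3) in KDM1A knockdown. The groups were apart by more than the spread within either (log2 0.94 ± 0.10, adjusted p 4.90e-06), and the KDM1A knockdown libraries held 52.0% of the level of the CDKN1A knockdown libraries. SPP1, which encodes the secreted phosphoprotein osteopontin and is the third gene targeted in the series, averaged 117 ± 16.0 CPM in CDKN1A knockdown and 132 ± 4.17 CPM in KDM1A knockdown, a difference that did not pass the test (log2 -0.18 ± 0.23, 95% interval -0.66 to 0.30, adjusted p 0.659). The guides of a target were unequal: CDKN1A mRNA was higher with CDKN1A guide 2 than with CDKN1A guide 1 (log2 0.61, adjusted p 0.00485), and KDM1A mRNA was lower with KDM1A guide 3 than with KDM1A guide 2 (log2 -0.53, adjusted p 8.21e-05), both in a fit with a coefficient for each guide. In that fit CDKN1A mRNA was lower with CDKN1A guide 1 than with KDM1A guides 2 and 3 (log2 -0.86 and -0.71, adjusted p 3.02e-05 and 0.000490). With CDKN1A guide 2 it was not called against either (log2 -0.25 and -0.10, adjusted p 0.0926 and 0.569).

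**Figure D1:**
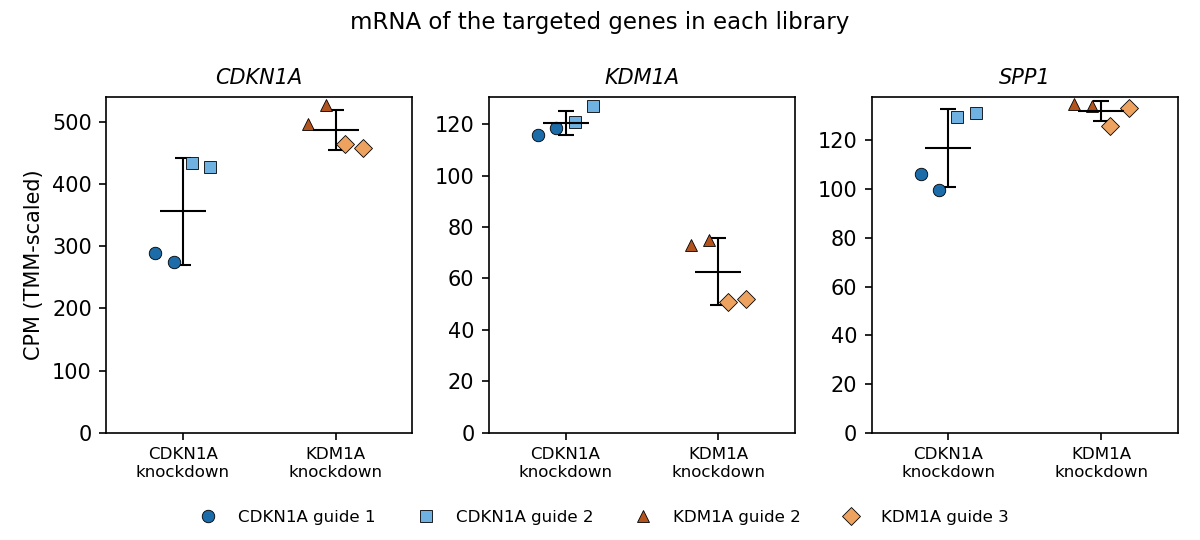
CDKN1A, KDM1A and SPP1 mRNA in TMM-scaled CPM in each library, with CDKN1A knockdown on the left and KDM1A knockdown on the right of each panel. Points are libraries, with a marker for each guide, and the bars are the mean ± SD (n = 4). CDKN1A mRNA is lowest with CDKN1A guide 1, KDM1A mRNA is lowest with KDM1A guide 3, and the SPP1 values overlap.

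In all, 2022 of 13527 genes were called, 14.9% of those tested, with 932 higher (6.89%) and 1090 lower (8.06%) in CDKN1A knockdown. Most differences were small: 1439 of the 2022 (71.2%) were under 1.5-fold, while 267 (1.97% of those tested) were called and at least 2-fold apart, 94 higher (0.695%) and 173 lower (1.28%). The 4 libraries of each group did not overlap for 3269 genes (24.2%), of which 1661 (12.3%) were lower in CDKN1A knockdown. At 4-fold or more, 14 genes were higher and 29 lower. The median log2 fold change of all genes was 0.005. In bulk RNA, fewer cells of a type and less RNA per cell cannot be told apart.

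Targets of p53 were among the genes higher in CDKN1A knockdown. Of 30 measured targets, with CDKN1A itself left out, 21 were called higher (70%, beside 6.89% of all genes) and 0 lower, and the median log2 fold change was 0.43. The libraries did not overlap for 26 of the 30, all higher in CDKN1A knockdown, as for 11.9% of all genes. GDF15, a secreted stress cytokine of the TGF-beta superfamily, was the most abundant called member at 317 TPM in CDKN1A knockdown and 125 TPM in KDM1A knockdown. Its values were 200.4 and 198 CPM (guide 1) and 212 and 203 CPM (guide 2) in CDKN1A knockdown, against 79.5 and 77.8 CPM (guide 2) and 82.2 and 86.2 CPM (guide 3) in KDM1A knockdown. The 4 libraries of each group lay close together and far from the other group (log2 1.32 ± 0.09, adjusted p 9.36e-08).

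Other p53 targets with large differences spanned different branches of the response. SESN2, a stress-induced inhibitor of mTORC1 signalling, measured 14.5 and 14.4 CPM (guide 1) and 17.5 and 18.3 CPM (guide 2) in CDKN1A knockdown, against 6.41 and 7.24 CPM (guide 2) and 7.13 and 7.29 CPM (guide 3) in KDM1A knockdown (log2 1.20 ± 0.11, adjusted p 1.38e-06). TP53INP1, which promotes p53-dependent cell death, measured 19.6 and 20.9 CPM (guide 1) and 21.0 and 19.5 CPM (guide 2) in CDKN1A knockdown, against 9.74 and 9.23 CPM (guide 2) and 11.3 and 10.5 CPM (guide 3) in KDM1A knockdown (log2 0.99 ± 0.10, adjusted p 2.45e-06). Neither gene overlapped between the groups. The pro-apoptotic BBC3 (PUMA) averaged 10.004 ± 1.47 CPM in CDKN1A knockdown and 4.72 ± 0.407 CPM in KDM1A knockdown, and the antiproliferative BTG2 averaged 9.2027 ± 0.490 CPM in CDKN1A knockdown and 3.14 ± 0.455 CPM in KDM1A knockdown (log2 1.08 ± 0.20 and 1.56 ± 0.27, adjusted p 0.000977 and 0.000605). MDM2, the ubiquitin ligase that degrades p53, was higher by a smaller amount, 137 ± 11.1 CPM in CDKN1A knockdown and 92.8 ± 4.26 CPM in KDM1A knockdown (log2 0.56 ± 0.10, adjusted p 0.000906). DNA repair genes were among the called members: DDB2 and XPC, which recognise damaged bases, had log2 0.44 ± 0.07 and 0.46 ± 0.08, and RRM2B, a ribonucleotide reductase subunit, had log2 0.46 ± 0.09. The death receptors FAS and TNFRSF10B were also higher (log2 0.48 ± 0.09 and 0.42 ± 0.06), although TNFRSF10B has close paralogs among which reads may be divided. The 9 members that were not called had log2 fold changes of -0.08 to 0.26, among them BAX, a pore-forming protein of apoptosis (log2 0.26 ± 0.09, adjusted p 0.0727).

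The count of p53 targets called higher was close in all 4 pairs of guides. In the fit with a coefficient for each guide, 21 were called higher for CDKN1A guide 1 over KDM1A guide 2 (6.37% of all genes were), 22 for CDKN1A guide 1 over KDM1A guide 3 (3.32%), 21 for CDKN1A guide 2 over KDM1A guide 2 (7.89%) and 21 for CDKN1A guide 2 over KDM1A guide 3 (6.69%), and 1 was called lower in 1 of these pairs. These pairs share libraries. Between the 2 CDKN1A guides 0 of the 30 were called by edgeR, and between the 2 KDM1A guides 1 was higher and 2 lower with guide 3.

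Promoter sequence is shown for 2 called p53 targets because these hold, within 250 bases before the RefSeq start (GRCh38.p14), a pair of adjacent p53 half-site cores. This motif was searched after the data had been seen. AEN, an exonuclease of p53-dependent apoptosis, and PTCHD4, a membrane protein that lowers Hedgehog signalling, held it among 17 called targets with a promoter in the table. It was found in 0 of 8 targets not called and in 2.8% of the promoters of 10344 tested genes. The sequences, with the motif in capitals, are at chr15:88621301-88621330 (plus strand of the genome) and chr6:48111198-48111254 (minus strand of the genome).
AEN: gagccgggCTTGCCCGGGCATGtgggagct
PTCHD4: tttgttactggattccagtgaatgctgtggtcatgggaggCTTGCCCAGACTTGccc
AEN averaged 115 ± 4.34 CPM in CDKN1A knockdown and 96.9 ± 2.98 CPM in KDM1A knockdown (log2 0.24 ± 0.06, adjusted p 0.00655), and PTCHD4 measured 12.5 and 12.1 CPM (guide 1) and 11.7 and 9.43 CPM (guide 2) in CDKN1A knockdown, against 2.85 and 4.30 CPM (guide 2) and 4.95 and 4.77 CPM (guide 3) in KDM1A knockdown (log2 1.43 ± 0.20, adjusted p 7.68e-05). The AEN sequence lies upstream of the RefSeq start but touches an exon of GENCODE 29. A match is a description of the letters in this window, not a bound site.

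Genes of the integrated stress response, in which the transcription factor ATF4 raises amino acid synthesis and transport when translation is restrained, were also higher in CDKN1A knockdown. Of 17 measured, 12 were called higher (70.6%, beside 6.89% of all genes) and 1 lower (5.88%, beside 8.06%), with a median log2 fold change of 0.43. ATF4 itself measured 334 and 320.3 CPM (guide 1) and 378 and 375 CPM (guide 2) in CDKN1A knockdown, against 273 and 283 CPM (guide 2) and 269 and 270.5 CPM (guide 3) in KDM1A knockdown (log2 0.36 ± 0.07, adjusted p 0.00237). ASNS, which makes asparagine, measured 54.7 and 54.9 CPM (guide 1) and 78.6 and 81.7 CPM (guide 2) in CDKN1A knockdown, against 30.9 and 29.6 CPM (guide 2) and 30.3 and 32.7 CPM (guide 3) in KDM1A knockdown (log2 1.13 ± 0.16, adjusted p 8.49e-05). All CDKN1A knockdown libraries were above all KDM1A knockdown libraries for both genes, and those of CDKN1A guide 2 were the highest. The serine synthesis enzymes PSAT1 and PHGDH showed the same order of guides, with means of 117 ± 25.8 and 138 ± 23.9 CPM in CDKN1A knockdown and 62.7 ± 3.68 and 77.5 ± 4.04 CPM in KDM1A knockdown (log2 0.89 ± 0.13 and 0.83 ± 0.16). DDIT4, an mTORC1 inhibitor also induced by hypoxia, measured 5.75 and 5.32 CPM (guide 1) and 13.2 and 12.1 CPM (guide 2) in CDKN1A knockdown, against 2.38 and 2.99 CPM (guide 2) and 2.40 and 3.77 CPM (guide 3) in KDM1A knockdown (log2 1.63 ± 0.29, adjusted p 0.000851), and lost its call without CDKN1A guide 2 (adjusted p 0.0546). TRIB3, a pseudokinase that restrains ATF4 signalling, and ATF3, a transcription factor downstream of it, were higher too (log2 0.98 ± 0.15 and 1.08 ± 0.25). STC2, a secreted glycoprotein, was the member that was lower (log2 -0.43 ± 0.08, adjusted p 0.00102).

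The CDKN1A guides differed in this group, although CDKN1A mRNA itself was lower with CDKN1A guide 1 than with guide 2. Between the CDKN1A guides themselves, 6 were called higher with guide 2 than with guide 1 and 0 lower by edgeR's test, beside 173 of all genes (1.28%) called in either direction. CDKN1A guide 1 gave 10 members higher over KDM1A guide 2 (6.37% of all genes were) and 9 over KDM1A guide 3 (3.32%). CDKN1A guide 2 gave 14 over KDM1A guide 2 (7.89%) and 13 over KDM1A guide 3 (6.69%). Without CDKN1A guide 2, 5 of the 17 were called higher, while the calls over all genes went down to 680, against 2022 with all libraries.

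CHAC1, which degrades glutathione and is induced by ATF4, had similar values with both guides of each target: its values were 8.90 and 8.11 CPM (guide 1) and 9.88 and 8.90 CPM (guide 2) in CDKN1A knockdown, against 4.43 and 4.74 CPM (guide 2) and 4.80 and 4.21 CPM (guide 3) in KDM1A knockdown (log2 0.97 ± 0.12, adjusted p 1.54e-05). It is shown because its promoter window alone among 13 called members held TGATGCAA (on either strand), the composite element that ATF4 and C/EBP proteins bind, which 0.42% of the promoters of tested genes held. The match is on the minus strand and in capitals, at chr15:40953251-40953280 (plus strand of the genome), upstream of the RefSeq start but within an exon of GENCODE 29, whose gene starts at 40952962.
CHAC1: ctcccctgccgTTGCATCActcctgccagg

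**Figure D2:**
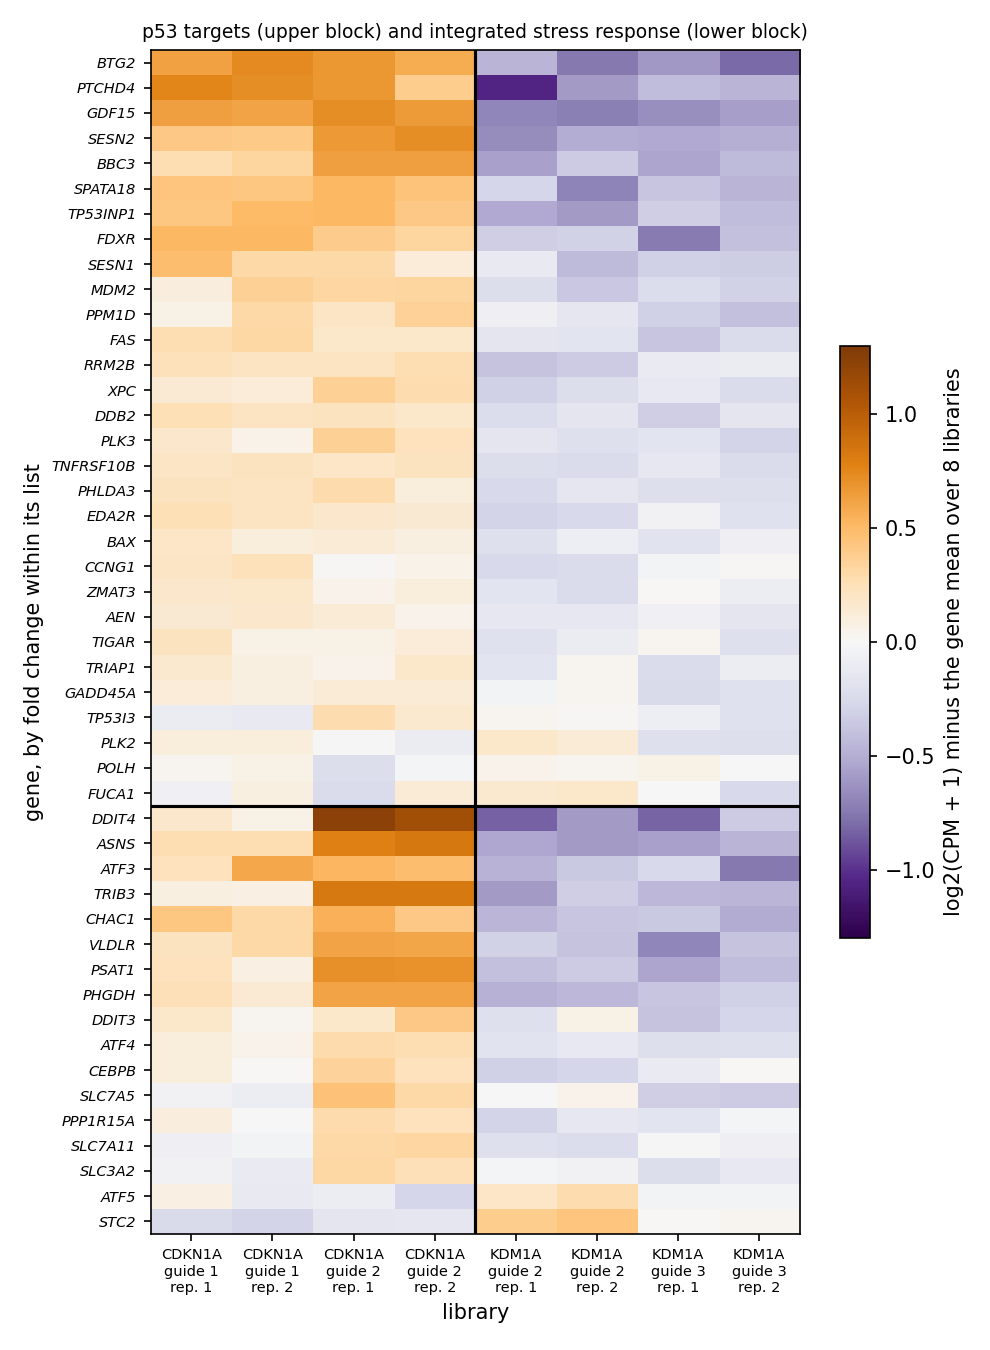
Level of each measured p53 target (upper block, 30 genes) and integrated stress response gene (lower block, 17 genes) in the 8 libraries, as log2(CPM + 1) minus the mean of the gene over the 8 libraries. CDKN1A knockdown is on the left and KDM1A knockdown on the right. Of the p53 targets 21 were called higher in CDKN1A knockdown, and of the stress response genes 12, with the highest values of DDIT4, ASNS and TRIB3 in the CDKN1A guide 2 libraries.

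Oxidative stress genes also differed with the CDKN1A guide. Called higher with guide 2 than with guide 1 were 5 of them, beside 99 of all 13527 genes. Of 13 measured targets of the antioxidant factor NRF2, iron storage and AKR1C genes, 4 were called higher (30.8%, beside 6.89% of all genes) and 0 lower. AKR1C1, an aldo-keto reductase, had the largest difference, with 8.78 and 8.11 CPM (guide 1) and 18.3 and 17.4 CPM (guide 2) in CDKN1A knockdown, against 2.14 and 1.4970 CPM (guide 2) and 1.24 and 1.44 CPM (guide 3) in KDM1A knockdown (log2 3.06 ± 0.51, adjusted p 0.000384); it shares most of its sequence with AKR1C2 and AKR1C3, so its share of reads is uncertain. GCLM, a subunit of the enzyme that starts glutathione synthesis, and FTH1, the ferritin heavy chain, were higher (log2 0.38 ± 0.08 and 0.47 ± 0.10), but both lost their calls without CDKN1A guide 2 (adjusted p 0.121 and 0.160). FTH1 also lost its call without KDM1A guide 3 (log2 0.35, adjusted p 0.0594). CDKN1A guide 2 gave 7 members higher and 0 lower over KDM1A guide 2 (7.89% of all genes were higher) and 10 higher and 0 lower over KDM1A guide 3 (6.69%). CDKN1A guide 1 gave 2 higher and 2 lower over KDM1A guide 2 (6.37%) and 3 higher and 1 lower over KDM1A guide 3 (3.32%). Between the KDM1A guides 3 members were lower with guide 3, as were 547 of all 13527 genes.

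Several other genes were higher in CDKN1A knockdown. UNC5B, a netrin receptor and p53 target that the list did not hold, measured 4.61 and 4.09 CPM (guide 1) and 12.2 and 12.6 CPM (guide 2) in CDKN1A knockdown, against 1.43 and 1.43 CPM (guide 2) and 0.873 and 0.503 CPM (guide 3) in KDM1A knockdown (log2 2.98 ± 0.39, adjusted p 4.00e-05). TMEM98, a transmembrane protein, measured 25.9 and 25.1 CPM (guide 1) and 20.7 and 18.4 CPM (guide 2) in CDKN1A knockdown, against 3.72 and 3.43 CPM (guide 2) and 6.69 and 9.17 CPM (guide 3) in KDM1A knockdown (log2 1.96 ± 0.21, adjusted p 6.45e-06). UNC5B was highest with CDKN1A guide 2 and TMEM98 with CDKN1A guide 1, and neither overlapped between the groups. CDH13, a cadherin anchored to the membrane by a lipid, had the smallest adjusted p among the members of all 38 lists, with 91.2 and 86.5 CPM (guide 1) and 90.7 and 91.7 CPM (guide 2) in CDKN1A knockdown, against 42.8 and 43.6 CPM (guide 2) and 44.5 and 42.3 CPM (guide 3) in KDM1A knockdown (log2 1.06 ± 0.06, adjusted p 6.74e-10). TNFSF9, the ligand 4-1BBL of the TNF family, averaged 6.82 ± 0.998 CPM in CDKN1A knockdown and 1.90 ± 0.662 CPM in KDM1A knockdown (log2 1.86 ± 0.36, adjusted p 0.00150). TBX15, a T-box factor of skin mesenchyme, averaged 6.47 ± 0.686 CPM in CDKN1A knockdown and 2.06 ± 0.738 CPM in KDM1A knockdown (log2 1.64 ± 0.18, adjusted p 8.17e-06). VEGFA, the main angiogenic growth factor, was higher as well (log2 0.79 ± 0.13, adjusted p 0.000427). The remaining genes of the 15 largest were KCNG1, KIF26B, LZTS1, ST6GAL2, PMEPA1, MSC, PALM2AKAP2, PPP4R4 and DENND11. The value of DENND11 is uncertain, since CDKN1A guide 2 replicate 1 held 2.33 CPM beside 16.9 to 19.3 CPM in the other 3 CDKN1A knockdown libraries, and its call was lost without any single guide (log2 2.68 to 3.43, adjusted p 0.0671 to 0.194). MSC, a basic helix-loop-helix factor, lost its call without CDKN1A guide 2 (log2 0.79 beside 1.59 ± 0.40, adjusted p 0.348), KDM1A guide 2 or KDM1A guide 3. PPP4R4 measured 7.89 and 7.78 CPM (guide 1) and 6.92 and 5.78 CPM (guide 2) in CDKN1A knockdown, against 1.82 and 0.811 CPM (guide 2) and 0.727 and 0.377 CPM (guide 3) in KDM1A knockdown. Its call was lost without any single guide, at log2 2.47 to 3.69 beside 2.96 ± 0.80 (adjusted p 0.0626 to 0.123). With effective transcript lengths as an offset its fold was smaller and its call was lost too (log2 1.125, adjusted p 0.116). PALM2AKAP2 lost its call without 3 of the 4 guides at a similar fold (log2 1.53 to 1.82 beside 1.74 ± 0.47, adjusted p 0.0543 to 0.115).

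The genes lower in CDKN1A knockdown, and so higher in KDM1A knockdown, included secreted matrix genes of fibroblasts. LUM, a small leucine-rich proteoglycan that spaces collagen fibrils (ENSG00000139329, chromosome 12, 91102629 to 91111831, GRCh38), measured 2.97 and 2.01 CPM (guide 1) and 1.20 and 0.684 CPM (guide 2) in CDKN1A knockdown, against 21.7 and 17.9 CPM (guide 2) and 15.6 and 14.8 CPM (guide 3) in KDM1A knockdown. DCN, its relative decorin, measured 7.20 and 8.82 CPM (guide 1) and 1.91 and 2.97 CPM (guide 2) in CDKN1A knockdown, against 23.7 and 24.3 CPM (guide 2) and 22.8 and 25.9 CPM (guide 3) in KDM1A knockdown. For both genes the groups were far apart, and the lowest libraries were those of CDKN1A guide 2. The fold changes were log2 -3.31 ± 0.27 for LUM and -2.19 ± 0.34 for DCN (adjusted p 3.70e-07 and 0.000206). Of 11 proteoglycans of this family 4 passed the filter on low counts, and the other two measured, BGN and PRELP, were not called.

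Of 19 collagen chains measured, 4 were called lower (21.1%, beside 8.06% of all genes) and 2 higher (10.5%, beside 6.89%), with a median log2 fold change of -0.25. The counts depended on the KDM1A guide, and the median changed sign with it for CDKN1A guide 2 only. CDKN1A guides 1 and 2 gave 10 and 9 chains lower and 2 and 3 higher over KDM1A guide 2 (medians -0.42 and -0.39). Over KDM1A guide 3 they gave 3 and 4 lower and 3 and 7 higher (medians -0.09 and 0.06). Of all genes, 8.37% and 9.91% were lower and 6.37% and 7.89% higher over KDM1A guide 2. Over KDM1A guide 3, 3.68% and 6.9% of all genes were lower and 3.32% and 6.69% higher. Between the KDM1A guides 9 were lower with guide 3 and 0 higher, beside 547 and 285 of all 13527 genes. COL3A1, the type III collagen chain, measured 11.6 and 11.7 CPM (guide 1) and 7.55 and 6.9962 CPM (guide 2) in CDKN1A knockdown, against 70.2 and 61.9 CPM (guide 2) and 28.4 and 28.8 CPM (guide 3) in KDM1A knockdown (log2 -2.31 ± 0.26, adjusted p 8.17e-06). No libraries overlapped, although KDM1A guide 2 lay well above KDM1A guide 3. COL1A1, the abundant type I chain, measured 3434 and 3287 CPM (guide 1) and 4419 and 4164 CPM (guide 2) in CDKN1A knockdown, against 5588 and 5629 CPM (guide 2) and 4045 and 4173 CPM (guide 3) in KDM1A knockdown. Its libraries overlapped, and the difference was called (log2 -0.34 ± 0.11, adjusted p 0.0477). The call was lost without KDM1A guide 2 (adjusted p 0.646), without CDKN1A guide 1 (adjusted p 0.425) and with the 8 libraries alone (adjusted p 0.0841). In all it was lost under 11 of the alternatives tried. COL12A1, a chain that associates with fibrils, was higher in CDKN1A knockdown, 254 ± 17.4 CPM against 198 ± 9.77 CPM in KDM1A knockdown (log2 0.36 ± 0.07, adjusted p 0.00102).

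Among 29 matrix glycoproteins and elastic fibre genes, 9 were called lower (31%, beside 8.06% of all genes) and 3 higher (10.3%, beside 6.89%). CDKN1A guides 1 and 2 gave 17 and 16 lower and 1 and 4 higher over KDM1A guide 2. Over KDM1A guide 3 they gave 5 and 5 lower and 5 and 8 higher. The shares of all genes that were lower were 8.37% and 9.91% over KDM1A guide 2 and 3.68% and 6.9% over KDM1A guide 3. The shares higher were 6.37% and 7.89%, and 3.32% and 6.69%. Between the KDM1A guides 16 were lower with guide 3 and 1 higher, beside 547 and 285 of all 13527 genes. FBN2, a fibrillin of elastic microfibrils, was higher, with 494 and 477 CPM (guide 1) and 501 and 489.5 CPM (guide 2) in CDKN1A knockdown, against 283 and 286 CPM (guide 2) and 347 and 320.4 CPM (guide 3) in KDM1A knockdown (log2 0.67 ± 0.09, adjusted p 8.49e-05). EFEMP1, a fibulin, was lower (11.5 ± 1.59 CPM in CDKN1A knockdown and 18.7 ± 2.49 CPM in KDM1A knockdown, log2 -0.70 ± 0.12). THBS1, the matricellular protein thrombospondin 1, measured 1816 and 1887 CPM (guide 1) and 1763 and 1734 CPM (guide 2) in CDKN1A knockdown, against 4159 and 4164 CPM (guide 2) and 2213 and 2084 CPM (guide 3) in KDM1A knockdown (log2 -0.81 ± 0.21, adjusted p 0.0115). Its groups did not overlap, and KDM1A guide 2 lay furthest from CDKN1A knockdown. ELN, the elastin gene, measured 0.821 and 1.43 CPM (guide 1) and 0.847 and 0.989 CPM (guide 2) in CDKN1A knockdown, against 13.9 and 15.2 CPM (guide 2) and 1.09 and 1.19 CPM (guide 3) in KDM1A knockdown, so that the KDM1A guide 3 libraries lay among those of CDKN1A knockdown (log2 -2.93 ± 0.65, adjusted p 0.00485). FN1, which encodes fibronectin, was not called (log2 -0.05 ± 0.10, adjusted p 0.782). Of 18 matrix proteases and inhibitors measured, 4 were called lower (22.2%, beside 8.06% of all genes) and 2 higher (11.1%, beside 6.89%). Their median log2 fold change was -0.04. ADAMTS1, a protease that cleaves proteoglycans, and PLAU, the urokinase plasminogen activator, were lower without overlap (log2 -0.72 ± 0.10 and -0.65 ± 0.10, adjusted p 0.000110 and 0.000318). MMP3 was higher without overlap (log2 1.14 ± 0.31, adjusted p 0.0182). Its call was lost without CDKN1A guide 2 or KDM1A guide 2 (adjusted p 0.180 and 0.256).

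**Figure D3:**
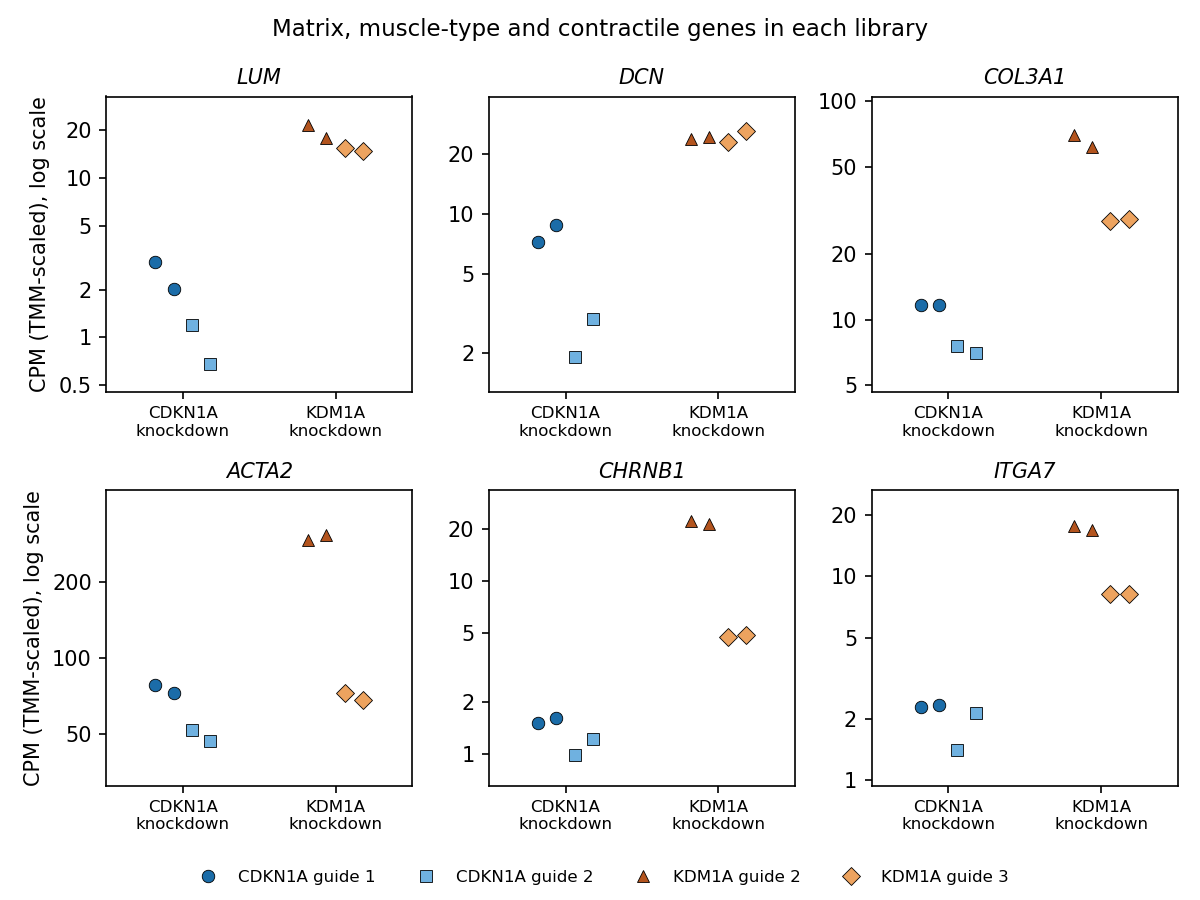
TMM-scaled CPM, on a log axis, of 6 genes called lower in CDKN1A knockdown. CDKN1A knockdown is on the left and KDM1A knockdown on the right of each panel, and points are libraries with a marker for each guide. The groups do not overlap for LUM, DCN, COL3A1, CHRNB1 and ITGA7, whereas for ACTA2 the KDM1A guide 3 libraries lie within the range of CDKN1A knockdown.

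CHRNB1, ITGA7 and EEF1A2 were among the 15 genes with the largest negative fold changes. CHRNB1, a subunit of the muscle acetylcholine receptor, measured 1.52 and 1.62 CPM (guide 1) and 0.988 and 1.22 CPM (guide 2) in CDKN1A knockdown, against 22.2 and 21.3 CPM (guide 2) and 4.73 and 4.90 CPM (guide 3) in KDM1A knockdown (log2 -3.30 ± 0.44, adjusted p 4.99e-05). ITGA7, a laminin-binding integrin of muscle, measured 2.27 and 2.33 CPM (guide 1) and 1.41 and 2.13 CPM (guide 2) in CDKN1A knockdown, against 17.7 and 16.9 CPM (guide 2) and 8.22 and 8.23 CPM (guide 3) in KDM1A knockdown (log2 -2.63 ± 0.26, adjusted p 2.43e-06). EEF1A2, the elongation factor isoform of muscle and neurons, averaged 1.22 ± 0.227 CPM in CDKN1A knockdown and 6.70 ± 3.37 CPM in KDM1A knockdown (log2 -2.44 ± 0.31). All 3 were highest with KDM1A guide 2, although KDM1A mRNA itself was lower with KDM1A guide 3.

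Contractile genes depended on the KDM1A guide. Of 16 measured, 6 were called lower (37.5%, beside 8.06% of all genes) and 0 higher (beside 6.89%). All 16 had a log2 fold change below 0, as did 6616 of all 13527 genes. ACTA2, the smooth muscle actin that marks myofibroblasts, measured 78.4 and 72.8 CPM (guide 1) and 51.9 and 47.1 CPM (guide 2) in CDKN1A knockdown, against 293 and 307 CPM (guide 2) and 72.7 and 68.5 CPM (guide 3) in KDM1A knockdown (log2 -1.56 ± 0.43, adjusted p 0.0193). The KDM1A guide 3 libraries lay within the range of CDKN1A knockdown. CDKN1A guides 1 and 2 over KDM1A guide 2 each gave 14 of the 16 lower (8.37% and 9.91% of all genes were), but CDKN1A guide 1 over KDM1A guide 3 gave 0 lower and 1 higher by edgeR's test (3.68% of all genes were lower), and CDKN1A guide 2 over KDM1A guide 3 gave 4 lower and 1 higher (6.9%). Between the KDM1A guides 13 were lower with guide 3 than with guide 2, as were 547 of all 13527 genes.

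Of 20 junction and epithelial genes measured, 8 were called lower (40%, beside 8.06% of all genes) and 2 higher (10%, beside 6.89%), at a median log2 fold change of -0.41. CDKN1A guides 1 and 2 gave 9 and 9 lower and 3 and 2 higher over KDM1A guide 2. Over KDM1A guide 3 they gave 7 and 7 lower and 5 and 4 higher. The shares of all genes lower were 8.37% and 9.91%, then 3.68% and 6.9%. The shares higher were 6.37% and 7.89%, then 3.32% and 6.69%. Between the KDM1A guides 8 were lower with guide 3 and 0 higher, beside 547 and 285 of all 13527 genes. CLDN1, a tight junction claudin, measured 19.1 and 17.6 CPM (guide 1) and 11.4 and 12.7 CPM (guide 2) in CDKN1A knockdown, against 68.3 and 69.9 CPM (guide 2) and 40.5 and 38.3 CPM (guide 3) in KDM1A knockdown (log2 -1.83 ± 0.23, adjusted p 2.44e-05). KRT18, a keratin of simple epithelia, measured 443 and 429.6 CPM (guide 1) and 385 and 382 CPM (guide 2) in CDKN1A knockdown, against 664 and 701 CPM (guide 2) and 568 and 605 CPM (guide 3) in KDM1A knockdown (log2 -0.63 ± 0.07, adjusted p 1.52e-05), and its partner KRT8 was lower too (log2 -0.64 ± 0.11), with processed copies that can share their reads. Neither CLDN1 nor KRT18 overlapped between the groups, and within KDM1A knockdown CLDN1 was highest with KDM1A guide 2. The desmosomal genes JUP and PKP2 were lower (log2 -1.69 ± 0.28 and -1.69 ± 0.29), while DSP, desmoplakin, was higher (log2 0.69 ± 0.13, adjusted p 0.00140). The summed level of keratinocyte markers was 144 to 166 TPM in CDKN1A knockdown and 169 to 181 TPM in KDM1A knockdown, most of it from KRT10, which was not called (log2 -0.19 ± 0.09, adjusted p 0.155), while the other 3 markers that passed the filter on low counts lay above 0 and were not called. The part of these markers in the junction genes was not tested.

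Growth factor genes followed. Of 9 measured EGF family ligands and ERBB receptors, 5 were called lower (55.6%, beside 8.06% of all genes) and 0 higher (median log2 -0.67). EREG, the ligand epiregulin, measured 53.2 and 48.5 CPM (guide 1) and 36.1 and 43.6 CPM (guide 2) in CDKN1A knockdown, against 84.4 and 84.2 CPM (guide 2) and 102 and 95.8 CPM (guide 3) in KDM1A knockdown (log2 -1.01 ± 0.13, adjusted p 3.33e-05). EPGN, the ligand epigen, measured 5.30 and 5.12 CPM (guide 1) and 6.70 and 6.24 CPM (guide 2) in CDKN1A knockdown, against 12.8 and 13.972 CPM (guide 2) and 15.6 and 15.3 CPM (guide 3) in KDM1A knockdown (log2 -1.31 ± 0.20, adjusted p 0.000230). Both were lower in every CDKN1A knockdown library than in every KDM1A knockdown library. The receptors ERBB3 and ERBB4 were lower at low levels (log2 -1.72 ± 0.32 and -1.76 ± 0.26), and both lost their calls with a transcript length offset (adjusted p 0.0674 and 0.430). ERBB3 also lost its call without KDM1A guide 2 (adjusted p 0.0624). EGFR, the main receptor of these ligands in fibroblasts, was not called (log2 0.21 ± 0.09, adjusted p 0.144).

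In the IGF axis, 5 of 12 genes were lower (41.7%, beside 8.06% of all genes) and 1 higher (8.33%, beside 6.89%). CDKN1A guides 1 and 2 gave 6 and 7 lower and 0 and 1 higher over KDM1A guide 2 (medians -0.34 and -0.51). Over KDM1A guide 3 they gave 4 and 4 lower and 1 and 3 higher (medians 0.02 and 0.06). The shares of all genes lower were 8.37% and 9.91%, then 3.68% and 6.9%. The shares higher were 6.37% and 7.89%, then 3.32% and 6.69%. Between the KDM1A guides 4 were lower with guide 3 and 0 higher, beside 547 and 285 of all genes. IGFBP4, a binding protein that holds IGF away from its receptor, measured 446 and 418 CPM (guide 1) and 398 and 387 CPM (guide 2) in CDKN1A knockdown, against 825 and 841 CPM (guide 2) and 675 and 696 CPM (guide 3) in KDM1A knockdown (log2 -0.88 ± 0.09, adjusted p 2.38e-06). IRS1, the adaptor below the receptor, was lower with the groups apart (log2 -0.43 ± 0.06, adjusted p 0.000136). IGFBP3, another IGF binding protein, measured 211 and 215 CPM (guide 1) and 301 and 282 CPM (guide 2) in CDKN1A knockdown, against 828 and 842 CPM (guide 2) and 283 and 276 CPM (guide 3) in KDM1A knockdown. Its call (log2 -1.14 ± 0.30) was lost without KDM1A guide 2 (log2 -0.15, adjusted p 0.749). It was also lost without CDKN1A guide 1 (log2 -0.94, adjusted p 0.149) or CDKN1A guide 2 (log2 -1.39, adjusted p 0.0550). In the WNT pathway 5 of 16 genes were lower (31.2%, beside 8.06% of all genes) and 0 higher (beside 6.89%). The ligand WNT16 measured 7.45 and 8.36 CPM (guide 1) and 5.64 and 3.50 CPM (guide 2) in CDKN1A knockdown, against 27.2 and 26.5 CPM (guide 2) and 20.1 and 19.7 CPM (guide 3) in KDM1A knockdown (log2 -1.89 ± 0.19, adjusted p 3.85e-06), and the modulator DKK2 and the coreceptor LRP5 were lower too (log2 -1.47 ± 0.20 and -0.57 ± 0.09). NOTCH3, a NOTCH receptor of mural and mesenchymal cells, averaged 7.11 ± 1.44 CPM in CDKN1A knockdown and 18.9 ± 2.50 CPM in KDM1A knockdown (log2 -1.40 ± 0.18, adjusted p 3.02e-05), the called gene of 9 in its pathway. PDGFRB, the receptor for PDGF-BB on mesenchymal cells, measured 43.7 and 43.5 CPM (guide 1) and 48.5 and 43.3 CPM (guide 2) in CDKN1A knockdown, against 96.8 and 100.4 CPM (guide 2) and 73.2 and 69.8 CPM (guide 3) in KDM1A knockdown (log2 -0.93 ± 0.15, adjusted p 0.000279).

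Of 18 measured genes of the type I interferon response, 4 were called lower (22.2%, beside 8.06% of all genes) and 0 higher, and 6 of the 18 lay above 0. Of 9 antigen presentation genes 4 were lower (44.4%) and 0 higher. CDKN1A guides 1 and 2 each gave 4 interferon genes lower over either KDM1A guide. They gave 5 and 4 antigen presentation genes lower over KDM1A guide 2 and 1 each over KDM1A guide 3. Of all genes, 8.37% and 9.91% were lower over KDM1A guide 2, and 3.68% and 6.9% over KDM1A guide 3. IFI44L measured 1.07 and 1.82 CPM (guide 1) and 2.61 and 2.13 CPM (guide 2) in CDKN1A knockdown, against 7.36 and 7.48 CPM (guide 2) and 7.20 and 5.97 CPM (guide 3) in KDM1A knockdown (log2 -1.88 ± 0.27, adjusted p 0.000112). The 4 libraries of each group did not overlap, and its neighbour and paralog IFI44 was lower by less (log2 -0.67 ± 0.15, adjusted p 0.00439). USP18, which removes the ubiquitin-like protein ISG15, and OAS3, which makes the activator of RNase L, were the other two called (log2 -0.77 ± 0.13 and -0.92 ± 0.24, adjusted p 0.000682 and 0.0138). ISG15 itself and IFIT1 were not called (log2 -0.08 ± 0.16 and 0.32 ± 0.20). The calls of IFI44 and OAS3 were lost without CDKN1A guide 1 or without KDM1A guide 2 (IFI44 adjusted p 0.0909 and 0.0783, OAS3 0.103 and 0.133), and that of OAS3 also without CDKN1A guide 2 (0.0782), with log2 fold changes of -1.01 to -0.78 for OAS3 and -0.52 to -0.49 for IFI44. B2M, the invariant light chain of the class I complex, and TAP1, a peptide transporter, were lower (log2 -0.35 ± 0.08 and -0.78 ± 0.15). The call of B2M was lost without CDKN1A guide 2 or KDM1A guide 2 (log2 -0.33 and -0.25, adjusted p 0.0693 and 0.102). TAP1 lies in the major histocompatibility region, where counts can fall on alternate haplotype copies, so its value is uncertain.

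The promoters of the interferon genes are shown because IFI44L, IFI44 and OAS3, the 3 called members with a promoter in the table, all held GAAA and GAAA separated by any 2 bases (on either strand), the core of the interferon-stimulated response element. The motif was also in 6 of 10 members that were not called, and in 2.37% of the promoters of tested genes, so its presence does not separate the called members from the rest. With the motif in capitals, IFI44 carrying it on the minus strand, the sequences are at chr1:78620244-78620333 (plus strand of the genome), chr1:78649731-78649788 (plus strand of the genome) and chr12:112938291-112938351 (plus strand of the genome).
IFI44L: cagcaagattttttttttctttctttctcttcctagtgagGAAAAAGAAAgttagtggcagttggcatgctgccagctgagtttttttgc
IFI44: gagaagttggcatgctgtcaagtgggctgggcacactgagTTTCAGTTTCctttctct
OAS3: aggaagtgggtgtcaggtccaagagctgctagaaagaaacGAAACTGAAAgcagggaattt

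Cell cycle genes differed by small amounts. Of 28 genes of G2/M and mitosis, 7 were called higher (25%, beside 6.89% of all genes) and 0 lower, at a median log2 fold change of 0.15, and 27 lay above 0. CDKN1A guides 1 and 2 gave 4 and 2 higher over KDM1A guide 2 (6.37% and 7.89% of all genes were). Over KDM1A guide 3 they gave 13 and 8 higher (3.32% and 6.69% of all genes were). Called members were the checkpoint kinase TTK, with 57.9 ± 2.34 CPM in CDKN1A knockdown and 46.3 ± 2.19 CPM in KDM1A knockdown (log2 0.32 ± 0.06, adjusted p 0.00128), and the kinetochore protein CENPF (log2 0.25 ± 0.06, adjusted p 0.00528). The call of CENPF was lost without KDM1A guide 2 or CDKN1A guide 1 (adjusted p 0.0744 and 0.0547). Of 23 genes of G1/S and DNA replication, 0 were called between the groups by edgeR and 0 by DESeq2 at a median of 0.03, and 5 had an unadjusted p under 0.05. By guide, CDKN1A guides 1 and 2 each gave 3 lower and 0 higher over KDM1A guide 2 (8.37% and 9.91% of all genes were lower). Over KDM1A guide 3 each gave 2 higher and 0 lower (3.32% and 6.69% of all genes were higher). Between the KDM1A guides 4 were lower with guide 3 and 0 higher, beside 547 and 285 of all 13527 genes. Among the other CDK inhibitors, pocket proteins and G1 cyclins, RBL2, the pocket protein p130, and CDKN2B, the inhibitor p15, were higher, and the cyclin CCND3 was lower (log2 0.43 ± 0.07, 0.48 ± 0.13 and -0.42 ± 0.07). The call of CDKN2B was lost without CDKN1A guide 2 or KDM1A guide 2 (adjusted p 0.185 and 0.223).

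Partners of LSD1 differed little. Of 14 measured members of the CoREST complex, 2 were higher (14.3%, beside 6.89% of all genes) and 0 lower: RCOR3, a corepressor subunit, and REST, the factor that recruits the complex to neuronal genes (log2 0.22 ± 0.07 and 0.26 ± 0.08, adjusted p 0.0445 and 0.0300). Both calls were lost without any single guide (RCOR3 log2 0.17 to 0.26, adjusted p 0.0508 to 0.343, REST log2 0.24 to 0.28, adjusted p 0.0689 to 0.180). RCOR1 and HDAC1 were not called (log2 -0.06 ± 0.06 and -0.06 ± 0.06). Of 16 neuronal targets of REST, 7 passed the filter and 3 were lower in CDKN1A knockdown: SCN2A and SCN3A, sodium channel subunits, and BDNF, a neurotrophin (log2 -0.72 ± 0.14, -1.53 ± 0.33 and -0.36 ± 0.08; 42.9% of the 7, beside 8.06% of all genes). All 3 lost their calls without CDKN1A guide 2 (log2 -0.54, -0.99 and -0.24, adjusted p 0.0599, 0.0793 and 0.177). BDNF also lost its call without KDM1A guide 2 (log2 -0.33, adjusted p 0.0694). Of 26 histone and DNA methylation enzymes, 7 were higher (26.9%, beside 6.89% of all genes) and 0 lower (beside 8.06%), at a median of 0.11. CDKN1A guide 1 gave 2 of the 26 higher over KDM1A guide 2 (6.37% of all genes were) and 1 over KDM1A guide 3 (3.32%). CDKN1A guide 2 gave 8 higher over KDM1A guide 2 (7.89%) and 5 over KDM1A guide 3 (6.69%). KDM2B and KDM3A, demethylases of histone H3, had the smallest p of the 7 (log2 0.30 ± 0.06 and 0.31 ± 0.08), and both lost their calls without CDKN1A guide 2 (adjusted p 0.0589 and 0.138). KDM3A also lost its call without KDM1A guide 2 (adjusted p 0.0953). Of 8 pluripotency factors and TERT measured, 0 were called by edgeR, 0 by DESeq2 and 0 had an unadjusted p under 0.05; POU5F1, a reprogramming factor, had log2 0.45 ± 0.22 (adjusted p 0.186).

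**Figure D4:**
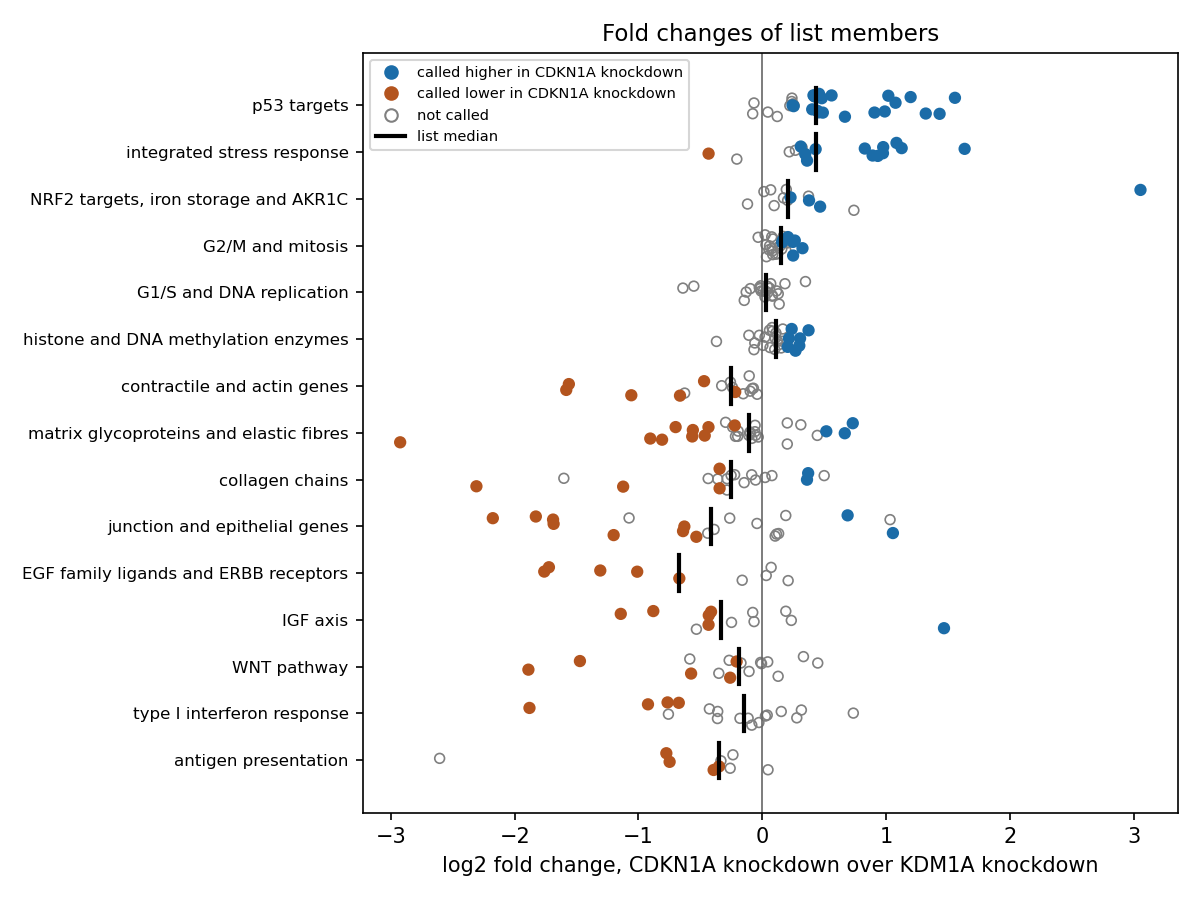
Log2 fold change, CDKN1A knockdown over KDM1A knockdown, of the measured members of 15 gene lists. Filled points were called (blue higher, orange lower in CDKN1A knockdown), open points were not, and the black line is the median of the list. The p53 and integrated stress response lists lie to the right at a median of 0.43, and the EGF family and junction lists to the left at medians of -0.67 and -0.41.

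The guides of each target gave a check across libraries. CDKN1A guide 1 over KDM1A guide 2 called 1994 genes (14.7%) and CDKN1A guide 2 over KDM1A guide 3, which shares no library with it, called 1838 (13.6%). They had 827 genes in common, 41.5% of the first list and 45.0% of the second, of which 732 had one direction and 95 opposite directions. The other arrangement, CDKN1A guide 1 over KDM1A guide 3 (947 genes, 7%) and CDKN1A guide 2 over KDM1A guide 2 (2407, 17.8%), had 655 in common, 69.2% and 27.2% of the lists, with 635 in one direction and 20 in opposite directions. The KDM1A guides differed from each other in 832 genes (6.15%) and the CDKN1A guides in 173 (1.28%). Of the 2022 called genes, 268 (13.3%) differed between the KDM1A guides and 84 (4.2%) between the CDKN1A guides. In all 4 pairs of a CDKN1A guide and a KDM1A guide, 482 of the 2022 (23.8%) were called in the direction of the main test.

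Matrix genes were among those with opposite directions, chosen here after their values were seen. POSTN, the matricellular protein periostin, measured 186 and 184 CPM (guide 1) and 447 and 469 CPM (guide 2) in CDKN1A knockdown, against 286 and 292 CPM (guide 2) and 181 and 185 CPM (guide 3) in KDM1A knockdown. COL4A1, a basement membrane collagen chain, measured 696 and 707 CPM (guide 1) and 917 and 892 CPM (guide 2) in CDKN1A knockdown, against 1536 and 1587 CPM (guide 2) and 615 and 612 CPM (guide 3) in KDM1A knockdown. Each was therefore lower for CDKN1A guide 1 over KDM1A guide 2 and higher for CDKN1A guide 2 over KDM1A guide 3 (POSTN log2 -0.64 and 1.32, COL4A1 log2 -1.15 and 0.56), and neither was called between the groups (adjusted p 0.328 and 0.242). LUM, COL3A1 and ITGA7 were lower in both pairs (LUM log2 -2.98 and -3.99, COL3A1 log2 -2.50 and -1.97, ITGA7 log2 -2.90 and -2.22).

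**Figure D5:**
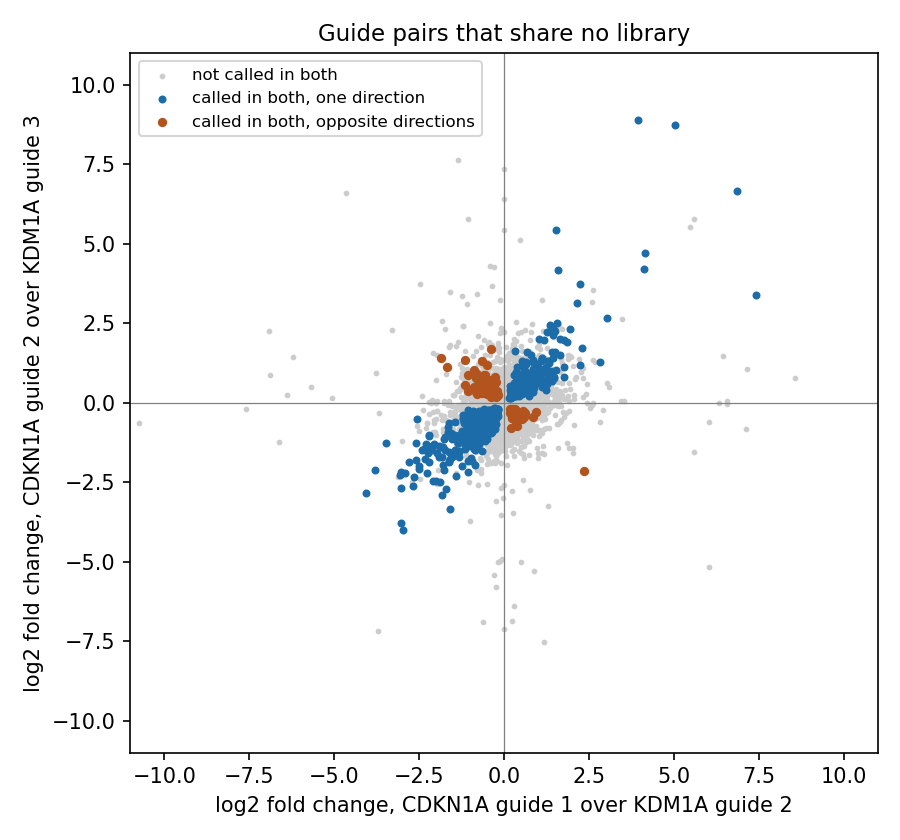
Log2 fold change of each tested gene for CDKN1A guide 1 over KDM1A guide 2 (horizontal axis) and for CDKN1A guide 2 over KDM1A guide 3 (vertical axis), which share no library. Blue points were called in both with one direction (732 genes), orange points were called in both with opposite directions (95 genes), and grey points are the rest.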

How the data were processed

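Poly(A) RNA-seq was made from hiF-T cells with RNeasy Micro extraction and NEBNext poly(A) selection and Ultra II library kits, per the labels' protocols. Estimated counts and TPM per transcript were made by the authors with kallisto on GRCh38 (hg38), per the submitters' processing notes, and deposited per library with effective lengths; the kallisto version, its settings and any strand setting are not stated in the labels, so overlapping and antisense genes cannot be told apart. GENCODE 29 matched 169797 of 188753 transcripts (90.0%) to 35579 genes, and unmatched transcripts held 2.52 to 2.57% of the counts.

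Per gene these were added up and rounded to whole numbers, and 13527 genes passed edgeR's filterByExpr (minimum count 10). The test was edgeR 4.0.16's quasi-likelihood test in R 4.3.3 after TMM scaling, with 1 coefficient per target, all 18 libraries in the fit and the Benjamini-Hochberg correction over all genes; the same fit with 1 coefficient per guide gave the guide contrasts. Alternatives used DESeq2 1.42.0, other scalings, filters and designs, and left out libraries or guides. No 2 libraries of a guide agreed within counting noise (chi-square per degree of freedom 2.12 to 4.86), so none was treated as a repeat deposit; this does not show that they were separate cultures.

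Genes were named by rule: the 3 targets, the 15 largest differences each way among called, non-overlapping genes averaging 1 or more in log2 CPM, and up to 4 called members of smallest p per list. Other members named in the text were chosen after their values were seen. The comparison and the lists were chosen with earlier results of these data known. Promoter sequences came from a RefSeq table (GRCh38.p14), which held 10344 of the 13527 tested genes.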

Additional observations from a re-analysis of the deposited data

Results flagged for a closer look

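For the 137 genes chosen by rule, each group of 4 libraries was screened for a library whose gap to the nearest other library was too large a part of the group's whole range (above Dixon's 95% critical value for 4 values). Of 274 groups 15 passed, and chance alone passes about 1 group in 20. DENND11 at 2.3285 CPM in guide 2 replicate 1 (others 16.9 to 19.3 CPM) and KDM2B at 40.855 CPM in guide 2 replicate 1 (others 37.819 to 38.023 CPM) stood apart from the rest of CDKN1A knockdown. ITGA11 at 13.548 CPM in guide 2 replicate 1 (others 11.1 to 11.4 CPM) and ITGA5 at 465.21 CPM in guide 2 replicate 1 (others 447 to 449.7 CPM) stood apart from the rest of CDKN1A knockdown. VCL at 661.44 CPM in guide 2 replicate 2 (others 707 to 709.8 CPM) and OAS3 at 3.2831 CPM in guide 1 replicate 1 (others 4.30 to 4.41 CPM) stood apart from the rest of CDKN1A knockdown. EGR1 at 105.82 CPM in guide 1 replicate 1 (others 92.1 to 93.6 CPM) and PDGFRB at 48.476 CPM in guide 2 replicate 1 (others 43.3 to 43.7 CPM) stood apart from the rest of CDKN1A knockdown. P4HA1 at 77.194 CPM in guide 2 replicate 1 (others 74.3 to 74.5 CPM) stood apart from the rest of CDKN1A knockdown. SPP1 at 125.88 CPM in guide 3 replicate 1 (others 133 to 135 CPM) and KDM3A at 28.193 CPM in guide 2 replicate 2 (others 29.962 to 30.089 CPM) stood apart from the rest of KDM1A knockdown. KDM6B at 9.8551 CPM in guide 2 replicate 2 (others 11.8 to 12.1 CPM) and ACVR1 at 55.56 CPM in guide 3 replicate 1 (others 48.2 to 49.2 CPM) stood apart from the rest of KDM1A knockdown. POU5F1 at 0.871 CPM in guide 2 replicate 1 (others 1.53 to 1.63 CPM) and VEGFA at 31.598 CPM in guide 3 replicate 2 (others 25.8 to 26.3 CPM) stood apart from the rest of KDM1A knockdown.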

How the results depend on the processing

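The 2022 calls became 3049 with a coefficient for each guide, 446 when both libraries of each guide were added together, 1007 when effective transcript lengths entered as an offset, 1342 without CDKN1A guide 1, 680 without CDKN1A guide 2, 955 without KDM1A guide 2, 1887 without KDM1A guide 3 and 2592 with the 8 libraries alone. Leaving out a single library gave 1316 to 1832. DESeq2 called 2184, of which 1964 were among the 2022. The p53 targets called higher (21) were 12 with guides summed and 20 to 23 without a single library, and the stress response genes (12) were 6 with guides summed, 5 without CDKN1A guide 2 and 9 to 13 without a single library. The CDKN1A log2 fold change (-0.45) was not called with guides summed (-0.45), the length offset (-0.38), without CDKN1A guide 1 (-0.18) or without KDM1A guide 2 (-0.38), and was -0.56 to -0.34 without a single library. KDM1A stayed at 0.86 to 1.04 without a single library and SPP1 at -0.24 to -0.11. KDM6B reversed with the length offset, to -0.019. Differences between replicates 1 and 2 were not shared between CDKN1A guides and KDM1A guides (correlations -0.0574 to -0.0111). This cannot show whether libraries with the same replicate number were handled together. With replicate number as a block 1864 genes were called, 1853 of them among the 2022, with 21 p53 targets and 11 stress response genes higher, CDKN1A at -0.45 and KDM1A at 0.94. Of 130 called genes chosen by rule, 98 kept their call without any single library and 58 under every alternative tried. The cause of the changes was not tested, except that summing guides and leaving out libraries reduce the number of samples. The main test counted each library as a separate sample, although the libraries are nested in guides. With the libraries of a guide summed, each guide is the sample, and 443 of the 2022 calls were kept (21.9%). Each guide rests on 2 libraries, and genes near the filter on low counts have few counts behind them.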
